A study of Drosophila melanogaster with 8 samples.

Results

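Transcript levels in S2 cells transfected with double-stranded DNA (dsDNA) were compared with those in mock-transfected cells, in the control background of a study on dSTING knockdown. S2 is a Drosophila melanogaster line with features of hemocytes, the blood cells of the fly. The comparison used 4 of the 8 Affymetrix arrays of the study: 2 of control dsDNA cells and 2 of control mock cells. The cells of all 4 arrays had first been given non-specific double-stranded RNA (dsRNA) with CellfectinII, so the reference state is itself a transfected one. After 3 days the control dsDNA cells received a dsDNA of 90 nucleotides and the control mock cells lipofectamine alone, and both were lysed 24 hours later. The other 4 arrays, used for the fit and as a second background, came from cells given dsRNA against dSTING in place of the non-specific one, and 2 of them then received dsDNA and 2 were mock transfected.

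Arrays were placed in groups by their titles and source names. The genotype tag says otherwise for 4 of the 8 arrays, among them both control dsDNA arrays, because it follows the DNA treatment and not the RNAi. The level of Sting, given below, followed the titles in all 8 arrays. Whether the 2 arrays of each group stem from independent cultures is not stated in the labels, so p-values measure only the spread between these samples, which may be technical.

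In mammalian cells, DNA in the cytosol is sensed by cGAS, which makes a cyclic dinucleotide that activates STING and, through it, interferon genes. In flies, Sting is likewise a receptor for cyclic dinucleotides, made by cGAS-like receptors, and it signals through the kinase IKKbeta and the NF-kappaB factor Relish to antimicrobial and antiviral genes. The fly receptor cGlr1 responds to dsRNA, and interferon genes are absent from flies.

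The deposited table holds 1 linear intensity for each of 18769 probe sets other than array controls, and they cover 11982 genes. Much of it lies near a floor of 1: array medians were 1.18 to 1.22, and 19.6% to 24.1% of the values of an array were exactly at the floor. Values were analysed as log2(intensity + 1), and differences are dsDNA minus mock on that scale, which understates the change of dim genes. Descriptions across genes use the 3543 genes (4189 probe sets) whose level, the mean log2 value over all 8 arrays, exceeded 3. A gene is called not overlapping where both dsDNA arrays lay above, or both below, both mock arrays.

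1 of the 4 control arrays stood apart on the first principal component, which held 52.1% of the variance of the brighter probe sets. There control mock array 2 lay at 12.2, whereas the control dsDNA arrays lay at -3.05 and -3.01 and control mock array 1 at -0.85. At the other end, at -12.5, was array 2 of the dSTING RNAi dsDNA group. On the second component, with 14.9% of the variance, the 2 control dsDNA arrays lay at opposite ends, at 6.45 and -6.02. The median within-group SD of the brighter probe sets was 0.09 in control dsDNA cells and 0.10 in control mock cells on the log2 scale. Where leaving out control mock array 2 moved a list's median, or the value of a gene above level 3 discussed on its own, by over 1.5 times, both values are given.

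**Figure D1:**
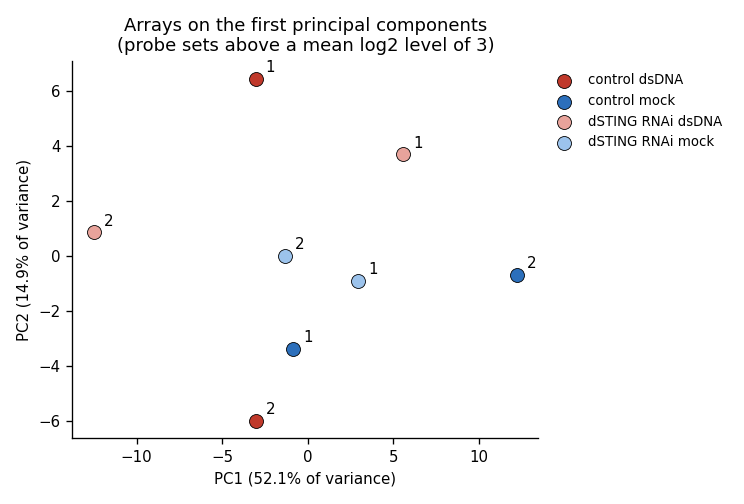
Positions of the 8 arrays on the first and second principal components of log2(intensity + 1) over probe sets above level 3 (arbitrary units, with the percent of variance on each axis), coloured by group and numbered by replicate. Control mock array 2 at 12.2 and dSTING RNAi dsDNA array 2 at -12.5 lie at the ends of the first component. Both control dsDNA arrays lie near -3 on the first component and at opposite ends of the second, at 6.45 and -6.02.

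In no gene did cells given dsDNA differ from mock-transfected cells past the test, and the measured differences were small. No probe set passed an adjusted p of 0.05 in the limma fit, which was 0 of 18769 (0%) over all probe sets, with a smallest adjusted p of 0.706, and 0 of 4189 (0%) over those above level 3, with a smallest adjusted p of 0.559. Unadjusted, 986 probe sets had a limma p under 0.05, 435 of them higher and 551 lower with dsDNA. Among the brighter probe sets 88.0% lay within 0.25 of 0 on the log2 scale, and the median absolute difference was 0.10. None reached a ratio of 2: the largest ratio of dsDNA over mock was 1.56, for CG9008, and the smallest was 0.577, for cN-IIIB, a nucleotidase gene.

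The precision of this comparison is set by 2 arrays a group. The median 95% interval of a brighter probe set, not adjusted for the number of probe sets, reached 0.29 to either side on the log2 scale, or 1.22-fold. Differences smaller than that were mostly not detectable in a single gene. After adjustment larger ones were not called either: crb, at 0.52, had a limma adjusted p of 0.763 over the brighter probe sets. The lack of calls therefore does not exclude changes above 1.22-fold. An exact permutation test of 2 arrays against 2 cannot go below a two-sided p of 0.333.

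**Figure D2:**
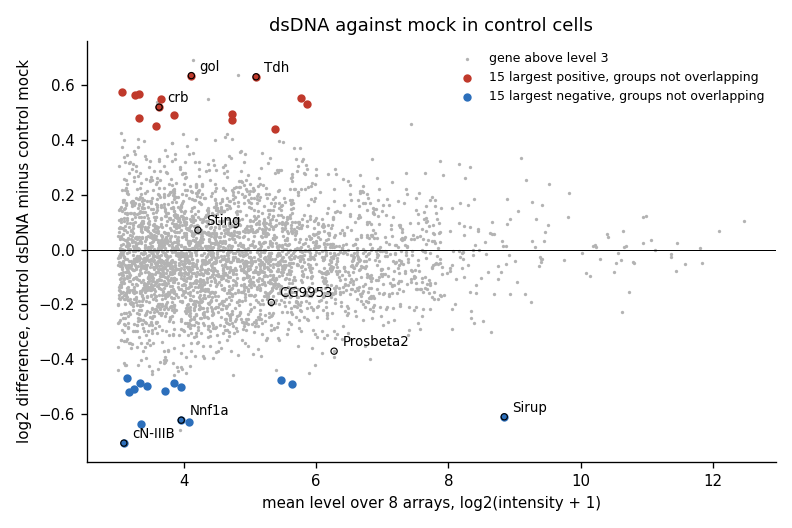
Log2 difference of control dsDNA minus control mock cells (vertical) against the mean level over all 8 arrays, log2(intensity + 1) (horizontal), for the 3543 genes above level 3. Red and blue points are the 15 genes with the largest positive and the 15 with the largest negative difference among those whose groups do not overlap, none of which passed the test. All points lie between -0.71 and 0.69.

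Genes of the STING pathway had nearly the same level with and without dsDNA. Sting itself had intensities of 53.1 and 51.6 in control dsDNA cells and 50.9 and 48.7 in control mock cells. The dsDNA arrays lay just above the mock arrays, and the log2 difference was 0.07 (SE 0.27), with a 95% interval from -0.62 to 0.76, and 0.04 without control mock array 2. In the 4 dSTING RNAi arrays Sting lay between 3.45 and 8.05, and their spread enters the SE and interval above.

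The kinase subunits and the transcription factor downstream of Sting were as close. key, which encodes the regulatory IKKgamma subunit, had 45.6 and 42.9 in dsDNA cells and 42.1 and 42.9 in mock cells (log2 difference 0.06, SE 0.06). Rel, the NF-kappaB gene, had 29.7 and 27.97 in dsDNA cells and 32.4 and 28.5 in mock cells, a difference of -0.07 (SE 0.09), and -0.16 without control mock array 2. The arrays of Rel overlapped between the groups, and the lower dsDNA array of key was level with the higher mock array.

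IKKbeta was dim, at 2.41 and 3.14 in dsDNA cells and 3.19 and 2.28 in mock cells. Nazo, an antiviral target gene of Sting, had 2.93 and 3.02 in dsDNA cells and 4.51 and 2.34 in mock cells. Its difference was -0.11 (SE 0.24), or -0.47 without control mock array 2, and the mock arrays lay on either side of both dsDNA arrays. The genes of the receptors, cGlr1 and cGlr2, and of the STING targets Srg1 and Srg2 never exceeded 1.48 in a control array, so no level above the floor could be compared for them. The 3 members of the list above level 3 had a median difference of 0.06, or 0.04 without that array, and 2 of them were positive.

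The antimicrobial peptide genes that could be measured, main products of NF-kappaB signalling in flies, were at or near the floor in all 4 arrays. Of 28 listed, 14 had a probe set assigned to that gene alone. AttA, AttB, AttC, CecC, DptA and Dro were among those without one, so nothing is said of them. None of the 14 measured lay above level 3, and the median difference of the 14 was -0.02. The highest value of any of them was 3.77, for Drs, the drosomycin gene, and it was in a mock array. Drs had 1.36 and 2.61 in dsDNA cells and 2.47 and 3.77 in mock cells, and the groups overlapped. The summed intensity of the 14 genes was 16.3 and 18.5 in dsDNA cells, against 18.6 and 20.3 in mock cells.

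The immune signalling pathways upstream of these peptides showed no common direction. Imd pathway genes, which relay bacterial peptidoglycan to Relish, had 7 positive and 6 negative values among 13 members above level 3, with a median of 0.01, and 0.03 without control mock array 2. Tab2, an adaptor of the kinase TAK1, had 12.1 and 12.6 in dsDNA cells and 14.2 and 14.49 in mock cells, a difference of -0.21 (SE 0.15). PGRP-LF, an inhibitor of the pathway, had a difference of 0.17 (SE 0.20). The adaptor gene Fadd had -0.28 (SE 0.22), but 0.04 without control mock array 2.

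Toll pathway genes had 3 positive and 4 negative values among 7 members, with a median of -0.02, or 0.02 after quantile normalization and -0.07 without control mock array 2. Myd88, the adaptor of Toll, had 8.68 and 9.29 in dsDNA cells and 7.78 and 6.31 in mock cells (0.32, SE 0.15). The Toll ligand gene spz had 96.2 and 94.6 in dsDNA cells and 89.0 and 76.9 in mock cells (0.20, SE 0.13). Without that array Myd88 had 0.18 and spz 0.10. Both lay higher in both dsDNA arrays, whereas GNBP3, a recognition protein for fungal glucans, lay lower in both, at -0.14 (SE 0.06).

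JAK/STAT pathway genes had the highest median of the lists, at 0.16 over 6 members, but it was -0.01 without control mock array 2. Socs44A, a suppressor of cytokine signalling, had 18.1 and 20.0 in dsDNA cells and 16.4 and 16.1 in mock cells, and its difference of 0.22 (SE 0.12) was 0.21 without that array. The differences of 3 other members moved more. Stat92E, the STAT factor, had 32.6 and 32.8 in dsDNA cells and 34.3 and 23 in mock cells, which gave 0.21 with all arrays and -0.06 without that one. The virus-induced gene vir-1 had 0.11 and -0.03 in the same way, and ken, a repressor of STAT targets, 0.42 and 0.07.

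**Figure D3:**
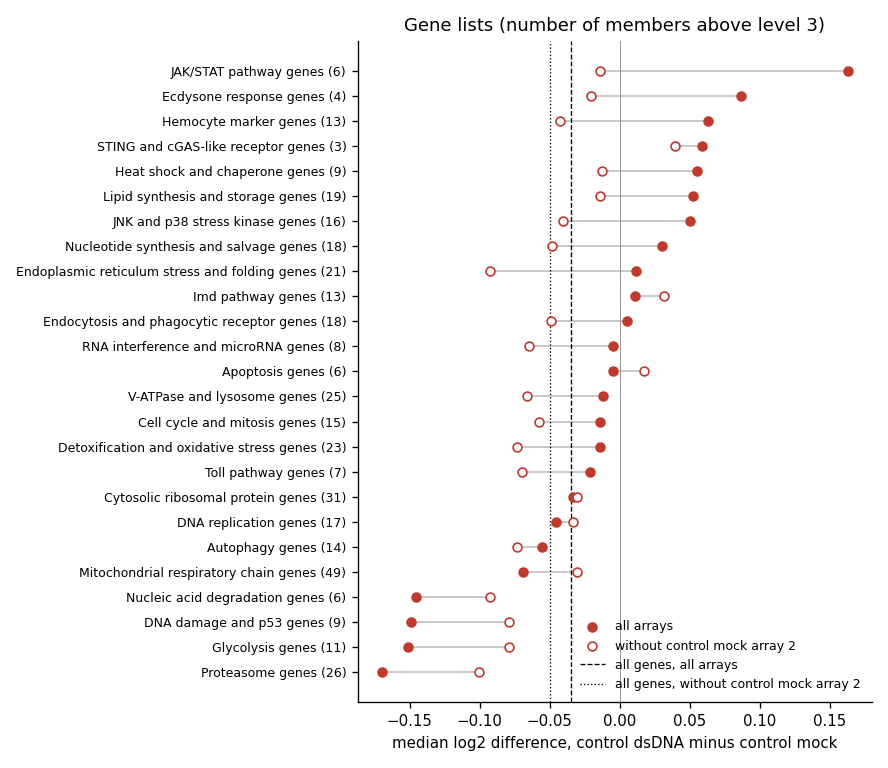
Median log2 difference of control dsDNA minus control mock cells (horizontal) for the gene lists with at least 3 members above level 3, with the number of such members in brackets. Filled circles use all arrays and open circles leave out control mock array 2, and the vertical lines mark the median over all genes, at -0.03 and -0.05. Medians run from 0.16 for JAK/STAT genes to -0.17 for proteasome genes, and the open circles lie between -0.10 and 0.04.

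Across all 3543 brighter genes 1442 differences were positive and 2101 negative, with a median of -0.03. The groups did not overlap in 324 genes that were higher with dsDNA (9.14%) and in 875 that were lower (24.7%). This split depended on scaling, being 530 and 660 with each array centred on its median and 513 and 609 after quantile normalization. Counts of members are read against these shares below. Where the groups of a gene did not overlap, an exact permutation test of 2 arrays against 2 gives a two-sided p of 0.333. Without any effect of dsDNA, array order alone would on average part the groups in about that share of genes. Non-overlap by itself is therefore no sign of a response to dsDNA. No member of any of the 31 lists passed the limma test.

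Proteasome genes, whose products degrade ubiquitin-tagged proteins, were more uniformly lower with dsDNA than any other list with over 1 member above level 3. All 26 measured members lay above level 3, 25 of them had a negative difference, and the groups did not overlap in 20, all lower. That is 76.9% of the list, against 24.7% of all genes, and the count was 16 under either rescaling. The median was -0.17, and it was -0.14 after quantile normalization, -0.15 after centring and -0.10 without control mock array 2. The summed intensity of the list was 2161 and 2316 in dsDNA cells, against 2438 and 2639 in mock cells. The mock array with the highest sum was array 2, and its part in the result was not tested.

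Prosbeta2, a catalytic core subunit gene, had 65.7 and 71.2 in dsDNA cells and 86.4 and 91.2 in mock cells. Its difference was -0.37 (SE 0.16), and -0.33 without control mock array 2. Rpn12, a lid subunit gene of the regulatory particle, had 68.6 and 71.1 in dsDNA cells and 85.7 and 86.4 in mock cells, a difference of -0.30 (SE 0.08). For both genes the arrays of each group lay close together and the groups were well apart. Prosbeta5, another catalytic subunit gene, had 110.5 and 130 in dsDNA cells and 139.7 and 144.4 in mock cells (-0.24, SE 0.10). Prosbeta3, by contrast, depended on 1 array, with -0.26 (SE 0.22) from all arrays and -0.08 without control mock array 2.

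Of 49 mitochondrial respiratory chain genes 43 had a negative difference and 14 were lower without overlap (28.6%), which is near the 24.7% of all genes, and 9 were after quantile normalization. Their median was -0.07, against -0.03 over all genes, and without control mock array 2 it was -0.03, against -0.05 over all genes. SdhD, a subunit gene of succinate dehydrogenase, had 37.0 and 36.7 in dsDNA cells and 42.6 and 47.3 in mock cells (-0.28, SE 0.11). ND-B14.5A, of complex I, had -0.31 (SE 0.22), and -0.06 without that array, and UQCR-14, of complex III, had -0.22 (SE 0.14), and -0.12 without it.

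Glycolysis genes had a median of -0.15 over 11 members, 8 of them negative. Of the 11, 5 were lower without overlap (45.5%, against 24.7% of all genes), and 4 were under either rescaling. Without control mock array 2 the median was -0.08. Pfk, which encodes phosphofructokinase, had 114.1 and 117.6 in dsDNA cells and 130.6 and 151.2 in mock cells (-0.28, SE 0.13). Pgi had 72.5 and 87.2 in dsDNA cells and 87.8 and 106.7 in mock cells (-0.28, SE 0.14), and Gapdh1 had -0.27 (SE 0.22). Without that array these were -0.17, -0.14 and -0.12. The glycerol-3-phosphate dehydrogenase gene Gpdh1 went against the list at 0.30 (SE 0.19), with 13.7 and 13.9 in dsDNA cells and 11.6 and 10.4 in mock cells. A second, dimmer probe set of the gene above level 3 had 0.06 (SE 0.21).

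DNA damage and p53 genes had a median of -0.15 over 9 members, or -0.08 without control mock array 2, with 4 positive and 5 negative values. Of the 9, 5 were lower without overlap (55.6%, against 24.7% of all genes), or 3 after quantile normalization. Irbp18, a bZIP factor gene, had 63.5 and 71.2 in dsDNA cells and 76.9 and 81.6 in mock cells (-0.23, SE 0.08). Irbp, the Ku70 homologue gene, had -0.19 (SE 0.08) and nbs, a gene of the Mre11 complex, -0.16 (SE 0.07). Without that array Irbp had -0.10. Each of these 3 lay lower in both dsDNA arrays. grp went the other way, at 0.21 (SE 0.20), or 0.03 without control mock array 2, with overlapping groups.

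Nucleic acid degradation genes had a median of -0.15 over 6 members, or -0.09 without control mock array 2. Of the 6, 3 were lower without overlap (50%, against 24.7% of all genes), and 2 were under either rescaling. The exoribonuclease gene pcm had 7.38 and 8.09 in dsDNA cells and 9.01 and 9.09 in mock cells (-0.20, SE 0.05). EndoG, a nuclease gene of mitochondria, had 8.62 and 7.30 in dsDNA cells and 8.76 and 13.3 in mock cells, and its difference of -0.40 (SE 0.27) was -0.13 without control mock array 2. RNA interference and microRNA genes had a median near 0 (-0.005 as deposited, 0.03 after quantile normalization and -0.06 without control mock array 2). gw, of the microRNA effector complex, had a difference of 0.18 (SE 0.07) and Dcr-2, the Dicer of antiviral defence, 0.18 (SE 0.16), and without that array these were 0.11 and 0.06. me31B, a P-body helicase gene, had -0.08 (SE 0.06).

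Nucleotide synthesis and salvage genes had a median of 0.03 over 18 members, and -0.05 without control mock array 2. The adenosine deaminase gene Adgf-A had 12.3 and 9.26 in dsDNA cells and 9.62 and 7.46 in mock cells (0.30, SE 0.16), with overlapping groups. Aprt, an adenine salvage enzyme gene, had 0.19 (SE 0.09) and Dhod, of pyrimidine synthesis, -0.27 (SE 0.20). Without that array Adgf-A had 0.14, Aprt 0.12 and Dhod -0.12.

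DNA replication genes had a median of -0.05 over 17 members, of which 7 were lower (41.2%, against 24.7% of all genes) and 1 was higher without overlap. That count depended on scaling, being 3 lower and 2 higher after quantile normalization and 4 lower and 1 higher after centring. The GINS subunit gene Psf2 had 5.80 and 8.80 in dsDNA cells and 9.86 and 10.0 in mock cells (-0.42, SE 0.20). RPA3, of the single-strand binding complex, had -0.19 (SE 0.08), while the helicase gene Mcm6 had 46.9 and 45.7 in dsDNA cells and 42.5 and 37.3 in mock cells (0.21, SE 0.07, and 0.12 without control mock array 2).

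Cell division genes had a median of -0.01 over 15 members, which was 0.02 after quantile normalization, 0.01 after centring and -0.06 without control mock array 2. Of the 15, 3 were lower without overlap (20%, against 24.7% of all genes). The mitotic kinase gene aurB had 11.5 and 10.7 in dsDNA cells and 13.8 and 15.6 in mock cells (-0.37, SE 0.15). The borealin gene borr had 14.3 and 13.3 in dsDNA cells and 16.5 and 17.6 in mock cells (-0.29, SE 0.11). Incenp had 14.96 and 17.15 in dsDNA cells and 18.9 and 20.2 in mock cells (-0.27, SE 0.18). Without that array the 3 differences were -0.29, -0.25 and -0.23. In dSTING RNAi cells they were -0.12, -0.01 and 0.05, and 0.10, 0.16 and 0.31 without dSTING RNAi dsDNA array 2.

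Stress kinase genes of the JNK and p38 pathways had a median of 0.05 over 16 members, 12 of them positive, and -0.04 without control mock array 2. puc, a phosphatase gene that JNK signalling induces and that dampens it, had 26.9 and 31.3 in dsDNA cells and 26.6 and 15.9 in mock cells. Its difference was 0.47 (SE 0.29) with all arrays and 0.12 without array 2, which alone lay low. The kinase gene msn had 0.42 and -0.04 in the same way, and egr, the ligand gene of the pathway, 0.25 and 0.06.

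Protein folding genes divided by member. Heat shock and chaperone genes had a median of 0.06 over 9 members, and -0.01 without control mock array 2. Hsp60A, the mitochondrial chaperonin gene, had 335.7 and 347.9 in dsDNA cells and 390.6 and 429.0 in mock cells (-0.26, SE 0.12). The cytosolic chaperone gene Hsc70-4 had 0.21 (SE 0.17) and Hsp110 had 0.21 (SE 0.21), and these were 0.04 and -0.01 without that array.

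Endoplasmic reticulum stress and folding genes had a median of 0.01 over 21 members, and -0.09 without control mock array 2. The ATF4 homologue gene crc had 370.8 and 415.7 in dsDNA cells and 429.4 and 449.8 in mock cells (-0.16, SE 0.08). The oxidase gene Ero1L had 40.8 and 40.2 in dsDNA cells and 43.5 and 45.2 in mock cells (-0.13, SE 0.05). Both were lower without overlap, whereas Hsc70-3, the BiP gene, had 0.16 (SE 0.22), and -0.10 without array 2.

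Genes of autophagy, by which cells digest their own contents, had 12 negative values among 14 and a median of -0.06. Of the 14, 5 were lower without overlap (35.7%, against 24.7% of all genes). Among them were Atg3 (-0.18, SE 0.09), Atg9 (-0.20, SE 0.12) and Uvrag (-0.24, SE 0.15). After quantile normalization 3 of the 14 were lower without overlap, and 609 of all 3543 genes were, so the list then lay near the share of all genes. Without control mock array 2 Atg9 had -0.07 and Uvrag -0.10. V-ATPase and lysosome genes had a median of -0.01 over 25 members, which was 0.01 after centring and -0.07 without that array. The proton pump gene Vha13 had -0.20 (SE 0.12) and the hexosaminidase gene Hexo2 0.28 (SE 0.17), and without it they had -0.12 and 0.13. Endocytosis and phagocytic receptor genes had a median of 0.01 over 18 members, and -0.05 without it, with Hrs, of endosomal sorting, at 20.7 and 21.9 in dsDNA cells and 25.6 and 23.3 in mock cells (-0.19, SE 0.06). The clathrin adaptor genes AP-2sigma and lqf lay on either side, at -0.27 (SE 0.12) and 0.20 (SE 0.18), and without control mock array 2 at -0.15 and 0.01.

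Hemocyte markers lay on both sides of 0. Of 29 measured, 13 lay above level 3, among them srp, Pvr, crq and Col4a1, while Hml, a marker of mature plasmatocytes, had at most 3.99 and Pxn, eater, Sr-CI, He, lz, PPO1 and PPO2 were near the floor. The median of the 13 was 0.06, and -0.04 without control mock array 2. srp, the GATA factor of blood cells, had 44.9 and 46.8 in dsDNA cells and 39.9 and 34.8 in mock cells (0.29, SE 0.16, and 0.19 without that array). crq, the scavenger receptor gene, had 23.9 and 27.0 in dsDNA cells and 23.8 and 18.1 in mock cells (0.28, SE 0.15, and 0.09 without it). Both lay higher in both dsDNA arrays, crq by little against control mock array 1. In bulk RNA, fewer cells of a type and less RNA per cell cannot be told apart. Pvr, a growth factor receptor gene, had 0.13 and -0.04, and the collagen gene Col4a1 had -0.06 and -0.15.

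NimC1, which encodes a phagocytosis receptor of plasmatocytes, was lower in both control dsDNA arrays than in both mock arrays. It had 9.40 and 9.13 in control dsDNA cells and 11.2 and 12.9 in control mock cells. The difference was -0.34 (SE 0.07, 95% interval -0.52 to -0.16), with an unadjusted limma p of 0.00455 and an adjusted p of 0.763 over the brighter probe sets. Ppn, an extracellular matrix gene of hemocytes, had 7.65 and 10.6 in dsDNA cells and 11.5 and 13.5 in mock cells (-0.42, SE 0.22).

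Markers of other cell types were low in both groups. None of 8 fat body, 9 muscle, 13 neuronal and glial or 7 gut markers lay above level 3, and their median differences were 0.03, 0.002, 0.01 and 0.03. The highest single values in a control array were 5.96 in the fat body list (Apoltp), 1.86 in the muscle list, 8.18 in the neuronal and glial list and 1.69 in the gut list. Their summed intensities were 12.6 and 12.5 in dsDNA cells against 13.1 and 12.6 in mock cells for fat body, and 25.5 and 24.6 against 24.1 and 23.04 for neurons and glia. For muscle the sums were 11.1 and 11.3 in dsDNA cells against 10.5 and 10.3 in mock cells, and for gut 7.91 and 8.97 against 9.10 and 7.77. Of 9 germline and follicle markers tud, of the Tudor protein family, was above level 3, at 128.8 and 127.5 in dsDNA cells and 128.9 and 131.8 in mock cells.

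Cytosolic ribosomal protein genes had -0.03 over 31 members, 6 of them lower without overlap (19.4%), with RpL29 at -0.16 (SE 0.09) and RpS12 at -0.23 (SE 0.17), which were -0.10 and -0.09 without control mock array 2. Lipid synthesis and storage genes had 0.05 over 19, and -0.01 without that array, with the phosphatidylethanolamine synthesis gene Pect at 0.33 and 0.07, Agpat3, an acyltransferase gene, at 0.29 and 0.11 and the lipase gene bmm at 0.22 and 0.04. Detoxification and oxidative stress genes had -0.01 over 23 members, which was 0.005 after centring and -0.07 without that array. In that list maf-S, the partner gene of the factor Nrf2, had 25.2 and 28.9 in dsDNA cells and 31.6 and 35.1 in mock cells (-0.29, SE 0.09). Gclc, of glutathione synthesis, had 0.28 and 0.04 without control mock array 2, and Cyp28d1, a cytochrome P450 gene, 0.32 and 0.07.

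Apoptosis genes had a median of -0.005 over 6 members, positive under either rescaling and 0.02 without control mock array 2, with no member without overlap. Diap2, of the inhibitors of apoptosis, had -0.14 (SE 0.12), and -0.0012 without that array. Dark, the apoptosome gene, had 0.17 (SE 0.15) and 0.04 without it, while a second probe set of Dark near the floor had -0.05. Ecdysone response genes had 0.09 over 4 members, and -0.02 without that array, with Cth, a cystathionine lyase gene, at 0.17 (SE 0.12), and 0.01 without it.

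At the extremes, 10 probe sets above level 3 had both a ratio of at least 1.5 and no overlap, 5 of them higher (0.119%) and 5 lower (0.119%) with dsDNA. This count depended on single arrays: it was 0 without control mock array 2, 132 without control mock array 1 and 73 without control dsDNA array 2. With 1 array left in a group, no overlap is easier to meet, so these counts are not directly comparable with the 10.

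The 15 genes with the largest positive differences among those without overlap were gol, Tdh, CG9008, CG10359, Pdk1, Cul2, nemy, CG46339, crb, CG32115, cnk, dtn, puc, hzg and Prps. Their differences lay between 0.44 and 0.64, and 14 of the 15 were lowest in control mock array 2. Without that array all 15 differences were still positive, with a median of 0.26 in place of 0.53. The part of that array in the result was not tested.

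crb was the exception. It encodes Crumbs, a transmembrane protein of apical cell polarity, and had 13.2 and 14.2 in control dsDNA cells and 9.16 and 9.29 in control mock cells. The arrays of each group were close and the groups well apart, and the difference was 0.52 (SE 0.12, unadjusted limma p 0.00575, adjusted p 0.763 over the brighter probe sets). Without control mock array 2 it was 0.53.

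Of the other genes, gol, a RING ubiquitin ligase gene, had 17.9 and 21.9 in dsDNA cells and 16.8 and 9.07 in mock cells (0.64, SE 0.40, and 0.22 without control mock array 2). Tdh, of threonine breakdown, had 44.7 and 31.5 in dsDNA cells and 30.3 and 18.8 in mock cells (0.63, SE 0.45). Cul2, the scaffold gene of a cullin ubiquitin ligase, had 68.4 and 52.1 in dsDNA cells and 47.2 and 34.5 in mock cells (0.55, SE 0.32). Without that array Tdh had 0.30 and Cul2 0.33. In all 3 genes the spread within a group was about as wide as the gap between the group means.

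Pdk1, the kinase gene upstream of Akt, had 11.6 and 9.13 in dsDNA cells and 7.78 and 5.64 in mock cells (0.56, SE 0.27). CG9008 had 9.65 and 8.66 in dsDNA cells and 6.70 and 5.01 in mock cells (0.58, SE 0.24). These differences were 0.36 and 0.40 without control mock array 2. The Ras pathway scaffold gene cnk had 0.49 (SE 0.29), the cytochrome b561 gene nemy 0.55 (SE 0.43) and Prps, of phosphoribosyl pyrophosphate synthesis, 0.44 (SE 0.23), and without that array they had 0.26, 0.21 and 0.16.

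The 15 genes with the largest negative differences among those without overlap were cN-IIIB, CG2604, CG14795, Nnf1a, Sirup, Srx, Josd, CG11334, TTLL12, JMJD6, CG3566, CG42271, CG3337, msd1 and AlkB. Their differences lay between -0.71 and -0.47, and 14 of the 15 were highest in control mock array 2. Without it all 15 were negative, with a median of -0.40 in place of -0.51.

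cN-IIIB had 5.22 and 7.30 in dsDNA cells and 9.16 and 12.5 in mock cells (-0.71, SE 0.38, and -0.50 without control mock array 2). The kinetochore gene Nnf1a had 8.83 and 15.5 in dsDNA cells and 16.9 and 20.5 in mock cells (-0.62, SE 0.28). Sirup, an assembly factor gene of succinate dehydrogenase, had 309.7 and 475.9 in dsDNA cells and 520.9 and 661.2 in mock cells (-0.61, SE 0.37). It was the brightest of the 30 genes, and its arrays were spread widely within each group.

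Josd, a deubiquitinase gene of the Josephin family, was the exception here. It had 10.1 and 10.2 in dsDNA cells and 15.3 and 14.71 in mock cells, with little spread in either group, and a difference of -0.52 (SE 0.18), or -0.54 without control mock array 2. AlkB, of the family of dioxygenases that demethylate nucleic acids, had 5.75 and 6.83 in dsDNA cells and 8.33 and 9.89 in mock cells (-0.47, SE 0.12). JMJD6 had -0.50 (SE 0.16), the sulfiredoxin gene Srx -0.52 (SE 0.21) and the augmin subunit gene msd1, which acts in the spindle, -0.48 (SE 0.29), or -0.31 without that array. CG42271 had -0.49 (SE 0.27), or -0.23 without it, and its direction is not settled. A second probe set of the gene had 0.20, but it lay near the floor, at a level of 1.37, and carries little weight.

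**Figure D4:**
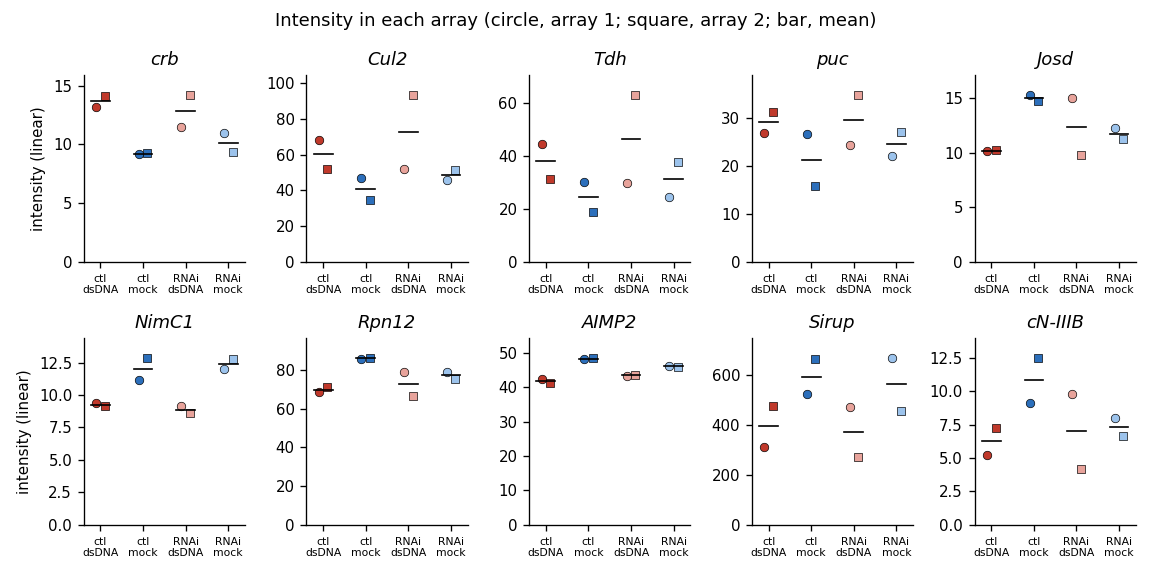
Linear intensity of 10 genes (vertical, from 0) in control dsDNA, control mock, dSTING RNAi dsDNA and dSTING RNAi mock arrays, with circles for array 1, squares for array 2 and bars for group means. In crb, Cul2, NimC1 and AIMP2 all 4 dsDNA arrays lie on the same side of all 4 mock arrays, whereas in Tdh, puc, Josd, Rpn12, Sirup and cN-IIIB the RNAi groups overlap.

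The genes with the smallest p were those whose arrays agreed best, not those with the largest differences. CkIIalpha-i1, which encodes a partner of casein kinase, had the smallest unadjusted limma p, 3.76e-05, with 1.99 and 1.91 in dsDNA cells and 2.91 and 2.96 in mock cells (-0.42, SE 0.03), and was dim. CG9953 had 36.9 and 36.2 in dsDNA cells and 42.0 and 41.9 in mock cells (-0.19, SE 0.03). AIMP2, a scaffold gene of the multi-tRNA synthetase complex, had 42.5 and 41.2 in dsDNA cells and 48.1 and 48.7 in mock cells (-0.21, SE 0.03). Both were lower in both dsDNA arrays by far more than the spread within a group, with unadjusted limma p of 0.000518 and 0.000602, and neither passed after adjustment.

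With a pseudocount of 16 in place of 1, CG9953 was the 1 probe set above level 3 that limma called, at -0.14 (SE 0.0071, adjusted p 0.0348). Its adjusted p lay between 0.0374 and 0.402 when single arrays were left out.

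Xxylt, a xylosyltransferase gene, had 15.5 and 14.9 in dsDNA cells and 18.04 and 18.65 in mock cells (-0.25, SE 0.04). TMEM216, of the ciliary transition zone, had 5.78 and 6.11 in dsDNA cells and 7.82 and 7.83 in mock cells (-0.35, SE 0.05). The other 5 of the 10 smallest p values belonged to probe sets that were higher with dsDNA and dim. CG34429, CG33093 and the gustatory receptor genes Gr36c and Gr47b had differences of 0.28, 0.24, 0.22 and 0.19, with at most 1.5 in a dsDNA array. A dim probe set of Pdk, the pyruvate dehydrogenase kinase gene, had 6.59 and 6.61 in dsDNA cells and 4.90 and 4.52 in mock cells (0.41, SE 0.06), but the brighter probe set of the gene had -0.04.

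The dSTING RNAi cells gave a second measurement of dsDNA against mock that shared no arrays with the first. Across the 3543 brighter genes the differences in control and in dSTING RNAi cells had the same sign in 65.0% (r = 0.464 across genes, which are not independent replicates). The likeness depended on the 2 arrays that stood apart: the share was 59.3% (r = 0.312) without control mock array 2, 38.9% (r = -0.314) without dSTING RNAi dsDNA array 2 and 49.9% (r = 0.011) without both. In the limma fit no difference between control and dSTING RNAi effects passed the test (0 of 18769, 0%), and 786 probe sets had an unadjusted p under 0.05.

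**Figure D5:**
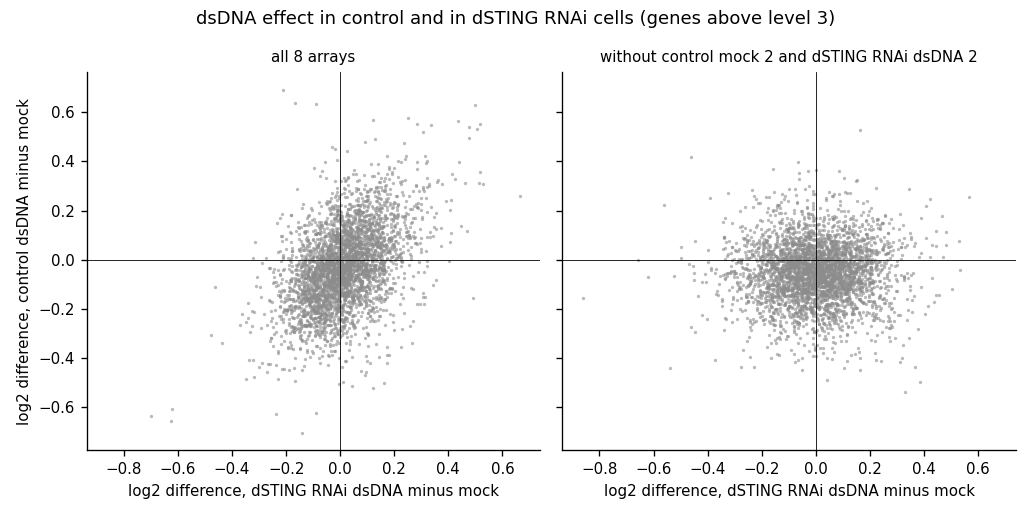
Log2 difference of dsDNA minus mock in control cells (vertical) against that in dSTING RNAi cells (horizontal) for the 3543 genes above level 3, with all 8 arrays on the left and without control mock array 2 and dSTING RNAi dsDNA array 2 on the right. The cloud slopes upward on the left (r = 0.464) and has no slope on the right (r = 0.011).

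In 29 genes (0.82%) all 4 dsDNA arrays of both backgrounds lay above all 4 mock arrays, and in 81 (2.29%) they lay below. crb, with 11.5 and 14.2 in dSTING RNAi dsDNA cells and 11.0 and 9.33 in dSTING RNAi mock cells, was among the first, at 0.31 (SE 0.12) in those cells. Cul2 was too, with 52.2 and 93.5 in dSTING RNAi dsDNA cells and 45.7 and 51.5 in dSTING RNAi mock cells (0.52, SE 0.32, and 0.10 without the array that stood apart). The counts of 29 and 81 genes were not compared with those that array order alone would give.

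NimC1 was among those that lay below. It had 9.13 and 8.64 in dSTING RNAi dsDNA cells and 12.04 and 12.75 in dSTING RNAi mock cells, a difference of -0.44 (SE 0.07), and -0.40 without the array that stood apart. CG2604 had 7.84 and 6.08 in dSTING RNAi dsDNA cells and 13.4 and 10.5 in dSTING RNAi mock cells (-0.70, SE 0.25). AIMP2, Xxylt and CG3337 were also below in all 4 dsDNA arrays, with differences in dSTING RNAi cells of -0.08, -0.06 and -0.23. For none of these genes did the limma test of control against dSTING RNAi effects pass, with an adjusted p of 1 for each.

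Of the 15 genes highest with dsDNA in control cells 13 were also positive in dSTING RNAi cells, and 5 were without both arrays that stood apart. Of the 15 lowest 10 were also negative, and 4 without both. CG9953 had -0.19 in control cells and 0.01 in dSTING RNAi cells, where all 4 arrays lay between 38.6 and 38.9. Josd had -0.52 in control cells and 0.05 in dSTING RNAi cells, but there its dsDNA arrays differed, at 14.98 and 9.75. Without the array that stood apart, its difference in dSTING RNAi cells was 0.33. Proteasome genes had a median of -0.17 in control cells and -0.12 in dSTING RNAi cells, and without the apart array of each background the medians were -0.10 and 0.03.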

How the data were processed

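Total RNA of S2 cells, in 4 groups of 2 arrays, was amplified with a 3' IVT kit, labelled with biotin and hybridised to Affymetrix arrays, per the labels' protocols. The deposited table gives 1 linear intensity per probe set and array, as processed by the authors. What software, background correction, normalization and build lie behind it is not given in the sources used here. Its lowest value is 1 and lies under many probe sets, where values carry no order.

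Of 18952 probe sets, 183 array controls were left out. Platform annotation, updated by gene identifier where possible (13544), gave 13647 probe sets 1 gene, 402 several and 4720 none. No coordinates are given. The brightest probe set stood for a gene. List members without a probe set assigned to them alone were not measured. Measured were 31 of 82 cytosolic ribosomal protein genes, 14 of 27 heat shock and chaperone genes and 13 of 20 apoptosis genes. For RNA interference and microRNA genes it was 14 of 18.

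Values were analysed as log2(intensity + 1). limma 3.58.1 (R 4.3.3; lmFit, contrasts.fit, eBayes) fitted 4 group means to all 8 arrays, with 4 residual degrees of freedom, or 5.32 with the prior. Tests were two-sided, with Benjamini-Hochberg adjustment and a threshold of 0.05. The fit was tested on simulated data. SDs are over 2 arrays, and the number of arrays limits the precision.

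Genes named were the 15 with the largest difference in each direction above level 3 without overlap, the 10 with the smallest p, the STING list, the 4 members with the largest differences of each other list with defining markers, of which those that matter are given, and the 5 with the smallest p for the difference between backgrounds. Members and the 31 lists were chosen with earlier results of these data known. No list was tested as a set.

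Alternatives were quantile normalization, median centring, a pseudocount of 16, a filter at the median level, the trend and robust options of eBayes, the replicate number as a block, array weights, 1 probe set per gene, only the 4 control arrays and each array left out. Leaving out the 2 arrays that stood apart and refitting above level 3 were chosen after seeing the data. Arrays with the same number did not deviate together (r = -0.06 between the control groups, and -0.74 to 0.38 over all 6 pairs of groups), so the numbers were not taken as pairs.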

Additional observations from a re-analysis of the deposited data

Results flagged for a closer look

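In 8 of the named genes the dsDNA arrays lay below both mock arrays in control cells and above both mock arrays in dSTING RNAi cells. The difference between the backgrounds, control minus dSTING RNAi, was -0.46 for TMEM216, -0.45 for CG5516, -0.33 for pcm, -0.32 for CG13016, -0.29 for Apoltp, -0.28 for CG14969, -0.16 for me31B and -0.15 for tud on the log2 scale. TMEM216 and Apoltp were dim. TMEM216 had 5.78 and 6.11 in control dsDNA cells and 7.82 and 7.83 in control mock cells, and 7.13 and 7.77 in dSTING RNAi dsDNA cells against 6.84 and 6.75 in dSTING RNAi mock cells. CG5516 had 15.6 and 14.2 in control dsDNA cells and 17.86 and 18.02 in control mock cells, and 17.9 and 16.9 in dSTING RNAi dsDNA cells against 14.3 and 15.9 in dSTING RNAi mock cells. In the exoribonuclease gene pcm the dSTING RNAi dsDNA arrays had 9.88 and 9.50 and the dSTING RNAi mock arrays 8.95 and 8.70. CG13016, CG14969, CG5516 and pcm were named for the smallest p of this very difference. Their unadjusted limma p lay between 0.00404 and 0.005, that of TMEM216 was 0.000698, those of Apoltp, me31B and tud were 0.0383, 0.104 and 0.103, and the adjusted p was 1 for all 8. Over all brighter genes 62 lay apart in opposite directions and 210 in the same direction in both backgrounds, 54 of them higher and 156 lower with dsDNA. These counts were not compared with those that array order alone would give. In dSTING RNAi cells alone 413 genes were higher (11.7%) and 409 lower (11.5%) without overlap.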

How the results depend on the processing

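limma called 0 probe sets over the whole table, and 0 for the difference between backgrounds, in every setting in which these were run, eBayes with trend and robust options among them. Above level 3 it called 0 in each but one: with a pseudocount of 16 it called 1, CG9953, and the cause was not tested. Same-numbered arrays did not pair, and with the replicate number as a block limma also called 0, with 419 higher and 488 lower at an unadjusted p under 0.05 and a smallest adjusted p above level 3 of 0.82. The count of 10 probe sets at 1.5-fold without overlap was 33 with the filter at the median level, which admits dimmer probe sets, 0 with a pseudocount of 16, which shrinks folds, 0 without the 2 arrays that stood apart, and 0 to 132 when single arrays were left out. Where a control array was left out, no overlap was easier to meet, so such counts are not directly comparable with the 10. Taken over all measured members of a list, and not those above level 3 alone, the median was negative in 15 lists, and in 10 to 22 over all settings.

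Among the named genes, 1 reversed under centring, Srg2 (0.0097). Without the 2 arrays that stood apart the values were 0.038 for Srg2, 0.043 for Fadd, -0.013 for Hsp110, -0.033 for vir-1, -0.039 for msn, -0.043 for Pvr, -0.065 for Stat92E, -0.10 for Hsc70-3 and -0.16 for IKKbeta. Leaving out single arrays also reversed Col4a1 (-0.20 to 0.080), Nazo (-0.47 to 0.25) and Rel (-0.16 to 0.016). The ranges of the others were -0.60 to 0.043 for Fadd, -0.10 to 0.42 for Hsc70-3, -0.013 to 0.43 for Hsp110, -0.16 to 0.20 for IKKbeta, -0.039 to 0.88 for msn, -0.043 to 0.31 for Pvr, -0.057 to 0.038 for Srg2, -0.065 to 0.49 for Stat92E and -0.033 to 0.26 for vir-1. The reversals other than that under centring came from leaving out a control array. Values near the floor, such as those of Srg2, Nazo and IKKbeta, limit what can be read.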

Other observations

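Some gene families picked after their values were seen, by symbol alone, are given here as counts above level 3, without a test. Mitochondrial ribosomal protein genes, which serve translation inside mitochondria, had a negative difference in 64 of 68, and 43 were lower with dsDNA without overlap. Their median was -0.21, and it was -0.18 after quantile normalization, -0.19 after centring and -0.11 without control mock array 2. In dSTING RNAi cells the median was -0.07, and 0.08 without the array that stood apart there. Aminoacyl-tRNA synthetase genes, which charge tRNAs, had a negative difference in 18 of 21, with a median of -0.13, and -0.11 without control mock array 2. Of these, 12 were lower without overlap.

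Translation initiation factor genes had a negative difference in 24 of 30, of which 13 were lower without overlap, and a median of -0.08. Mediator subunit genes, of the transcription machinery, had a negative difference in 10 of 14 (median -0.07), with 6 lower and 3 higher without overlap. Nucleoporin genes had a negative difference in 11 of 17, with a median of -0.04, and -0.0007 without control mock array 2. Of 77 long non-coding RNA genes 5 lay above level 3, and of 56 gustatory receptor genes 0 did. The median of all genes, for comparison, was -0.03, and -0.05 without control mock array 2. Of all genes, 24.7% were lower and 9.14% higher with dsDNA without overlap, and the family counts are to be read against these shares. The shares depended on scaling, and the family counts are for the values as deposited.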
